A study of Rattus norvegicus with 6 samples.

Results

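The nuclear genes of the respiratory chain and of ATP synthase were examined in rat renal cortex, in rats given ethylenediamine dihydrochloride and in rats given water. They were chosen by gene symbol: symbols starting with Ndufa, Ndufb, Ndufc, Ndufs, Ndufv, Uqcr, Cox4, Cox5, Cox6, Cox7, Cox8 or Atp5, and the succinate dehydrogenase genes Sdha, Sdhb, Sdhc and Sdhd. Cyc1 was also in the rule and was not analysed here. The rule gave 83 of the 15642 genes named by at least 1 probe, and 82 of them were among the 11530 genes tested. Of those 82 genes, 31 belong to complex I, 4 to complex II, 8 to complex III, 15 to complex IV and 15 to complex V. The other 9 are assembly factors or other genes that the symbols take in, and Cox6c-ps1, an annotated pseudogene, is among them. The subunits encoded by mitochondrial DNA, and the genes that no probe names, were not analysed here.

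Of 6 male Sprague-Dawley (Crl:CD(SD)) rats, 3 were given ethylenediamine dihydrochloride, a small diamine, at 500 mg/kg/day over 4 weeks. The other 3 received water over the same time, and all 6 had been bought at 5 weeks of age. Total RNA of the cortex of each animal was labelled with Cy3 and read on 1 Agilent 1-colour array. Values below are log2 signals relative to the 75th percentile of the same array, so a value of 0 lies at that percentile, and levels of different genes are not comparable because each probe binds with its own strength. A fold change is the ethylenediamine mean minus the water mean on this log2 scale. In whole cortex, fewer cells of a type and less RNA per cell cannot be told apart.

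Any pair of arrays correlated across genes at 0.9897 to 0.9944 (Pearson's r, genes not being independent replicates). Ethylenediamine replicate 1 shared slide 1 with the 3 water arrays, and ethylenediamine replicates 2 and 3 were on slide 2, so results are also given within slide 1. Replicate 1 of ethylenediamine stood apart on the second principal component (-27.64) and had 35691 probes well above background, against 40843 and 40516 in the other ethylenediamine arrays and 38930 to 40563 in the water arrays. All 14 proximal tubule markers, the defining set for cortex, were well above background on every array.

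Respiratory complexes I to IV pass electrons taken from NADH and succinate to oxygen, and complexes I, III and IV pump protons across the inner mitochondrial membrane. Complex V, ATP synthase, lets the protons back and makes ATP. The proximal tubule, which fills most of the cortex, depends on this pathway for the ATP that drives sodium transport. The nuclear transcription factors NRF1, GABPA and YY1 are known to bind promoters of many of these genes.

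Promoters of members are shown first, because their regulatory letters are a feature that the choice by symbol did not use. RefSeq promoters of 300 bases (250 before the annotated start and 50 after it, GRCr8) were matched for 72 of the 82 tested members, and 10 were not matched. Both strands were searched for GCGCA and GCGC with any 1 base between them (NRF1), CCGGAAG (GABPA) and AAGATGGC (YY1), motifs that do not contain each other. At least 1 of the 3 motifs was found in 41 member promoters (56.9%), against 26.8% of the 9430 promoters of tested genes and 15.5% of all 27457 promoters. The YY1 motif stood in 14 (19.4%) of the member promoters, against 5.12% of tested-gene promoters and 3.44% of all. The NRF1 motif stood in 14 (19.4%), against 9.13% and 4.71%, and the GABPA motif in 22 (30.6%), against 16.5% and 9.22%. The motif GGGCGG, bound by SP1, was found in 41.7% of member promoters, against 58.5% of tested-gene promoters and 34.9% of all. AAGGTCA, bound by the estrogen-related receptors, was found in 12.5%, against 3.08% and 4.37%. A match is a string of letters and does not show binding, and the YY1 letters include ATG, which a start codon near the annotated start can supply.

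The 4 promoters below belong to members with the smallest unadjusted p-values described later, other than Uqcrb. Capitals mark the NRF1, GABPA and YY1 motifs only, and each run is written 5' to 3' in the direction of its gene. Ndufa12 is at chr7:30658066-30658365 on the plus strand, with the NRF1 motif at position -112, counted from the start of the gene. This motif is read on the opposite strand, so the capitals show its reverse complement. Ndufa9 is at chr4:161374121-161374420 on the minus strand, with the YY1 motif at position 10. Ndufaf8 is at chr10:105879658-105879957 on the plus strand, with a GABPA motif at position -16 and a YY1 motif at position 2. Cox7b is at chrX:75148786-75149085 on the plus strand, and none of the 3 motifs is in this window.
Ndufa12: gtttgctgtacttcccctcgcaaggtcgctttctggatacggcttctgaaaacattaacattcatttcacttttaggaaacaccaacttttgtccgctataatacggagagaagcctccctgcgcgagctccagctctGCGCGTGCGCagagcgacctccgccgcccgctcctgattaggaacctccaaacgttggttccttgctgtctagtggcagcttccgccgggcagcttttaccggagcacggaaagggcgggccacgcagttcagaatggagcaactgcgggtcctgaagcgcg
Ndufa9: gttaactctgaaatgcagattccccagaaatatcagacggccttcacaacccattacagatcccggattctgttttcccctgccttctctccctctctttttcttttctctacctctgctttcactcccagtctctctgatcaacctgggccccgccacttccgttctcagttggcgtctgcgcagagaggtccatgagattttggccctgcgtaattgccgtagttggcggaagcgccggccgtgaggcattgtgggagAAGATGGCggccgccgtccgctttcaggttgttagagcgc
Ndufaf8: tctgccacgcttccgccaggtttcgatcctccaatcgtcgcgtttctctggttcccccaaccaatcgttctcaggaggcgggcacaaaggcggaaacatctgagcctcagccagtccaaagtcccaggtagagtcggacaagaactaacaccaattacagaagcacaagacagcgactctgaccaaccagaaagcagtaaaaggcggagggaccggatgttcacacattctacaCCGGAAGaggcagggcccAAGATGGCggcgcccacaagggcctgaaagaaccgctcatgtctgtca
Cox7b: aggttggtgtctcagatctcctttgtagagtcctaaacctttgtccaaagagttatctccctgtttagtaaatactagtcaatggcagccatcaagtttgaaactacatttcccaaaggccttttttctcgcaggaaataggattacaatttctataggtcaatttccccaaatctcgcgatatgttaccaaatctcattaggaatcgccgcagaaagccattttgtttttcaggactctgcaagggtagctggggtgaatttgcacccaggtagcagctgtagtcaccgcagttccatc

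Members with and without a motif had close median fold changes. They were -0.038 with the NRF1 motif and -0.037 without it. For GABPA the medians were -0.033 with the motif and -0.042 without it, and for YY1 they were -0.040 and -0.036.

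None of the 82 tested members differed between the groups at an adjusted p under 0.05 in limma with Benjamini-Hochberg adjustment over all 11530 genes, where 0% of the genes did in either direction. The smallest adjusted p among members was 0.342 (Ndufa12), and the smallest over all genes was 0.0973. At an unadjusted p under 0.05, 5 members (6.1%) were lower in ethylenediamine cortex, beside 4.97% of all genes, and 0 were higher, beside 5.39% of all genes. The 5 were Ndufa12, Ndufa9, Uqcrb, Cox7b and Ndufaf8. The share of 6.1% is near the background, so the count of 5 is no result about the members. The count was 2 without ethylenediamine replicate 2, 2 without ethylenediamine replicate 3, 1 without water replicate 1, 1 without water replicate 2 and 2 without water replicate 3. It was 0 with the slide as a block.

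Small differences leaned one way. The median fold change of the members was -0.034, against -0.004 over all genes, and 63 of 82 members (76.8%) had a negative fold change, beside 51.2% of all genes. All fold changes lay between -0.22 (Ndufa12, -14.1%) and 0.14 (Atp5f1d, 9.8%). The 3 ethylenediamine arrays lay below the 3 water arrays for 14 members (17.1%, beside 8.27% of all genes) and above them for 5 (6.1%, beside 9.2%). No test of the list was made. The p-values of single genes rest on the spread between arrays within a group, which in the ethylenediamine group mixes animal and slide.

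The lean was uneven over the animals. The median over members of the signal minus the gene's water mean was -0.016, -0.069 and -0.021 in ethylenediamine replicates 1 to 3, against -0.007, 0.004 and -0.004 in water replicates 1 to 3. All 3 ethylenediamine medians were thus below the water medians, with replicate 2 the farthest. Ethylenediamine replicate 2 was the lowest of the 6 arrays for 44 members (53.7%), beside 17.5% of all genes. Without that array the median fold change was -0.024 and 52 members were negative. Within slide 1 the median was -0.016, again with 52 negative.

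The members were measured tightly. Their median SD was 0.057 over ethylenediamine arrays and 0.035 over water arrays, against 0.112 and 0.093 over all genes, and their median SE was 0.057 against 0.090. The 95% interval of the fold change lay within 1.5-fold in both directions for 81 of 82 members, beside 79% of all genes. The exception was Cox8b, at -0.976 to 0.609. These intervals bound the differences at 3 animals a group, and an interval that spans 0 does not show equal levels.

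**Figure D1:**
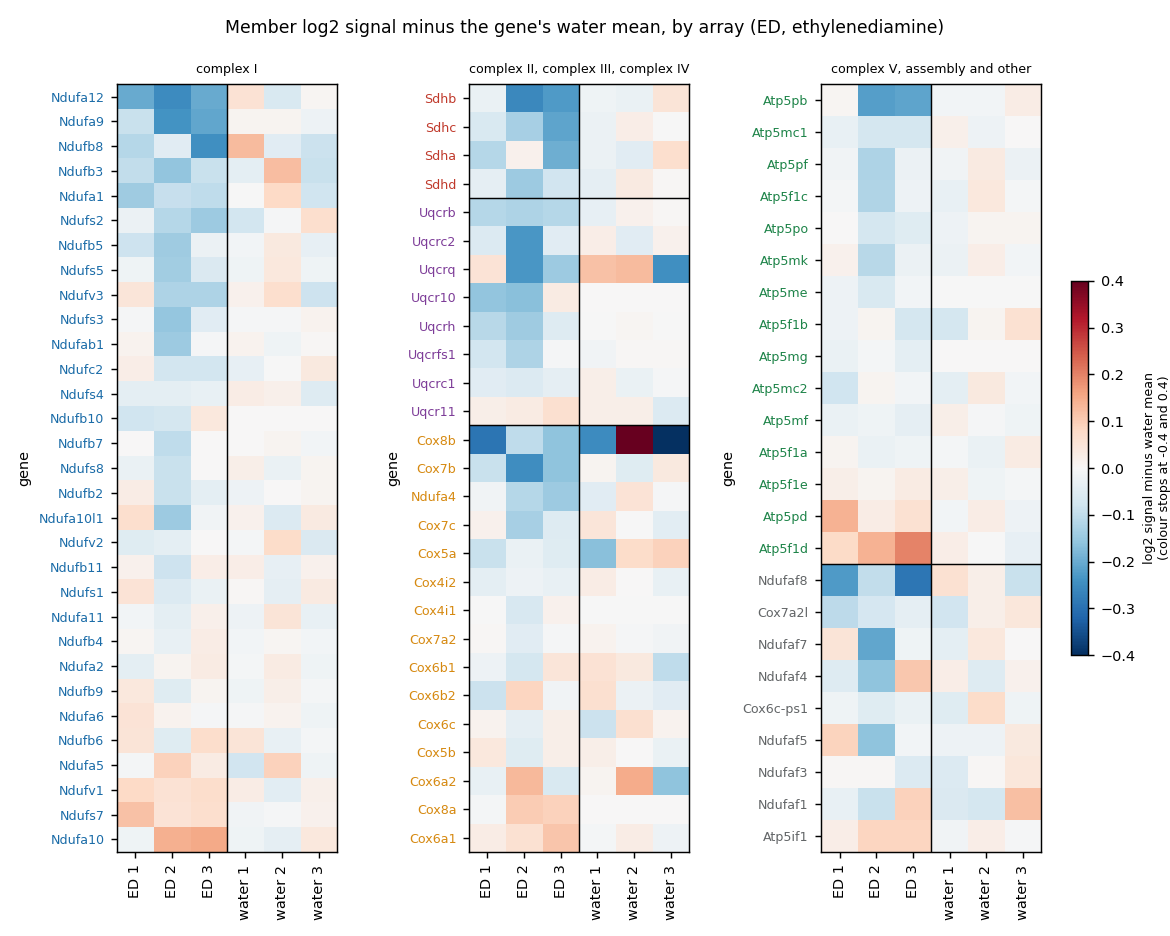
Each cell is the log2 signal of 1 member on 1 array minus that gene's water mean (colour, from -0.4 in blue to 0.4 in red), with genes in rows by complex, the 3 ethylenediamine arrays (ED) on the left and the 3 water arrays on the right. The blue cells concentrate in ethylenediamine replicate 2, the lowest array for 44 of 82 members.

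**Figure D2:**
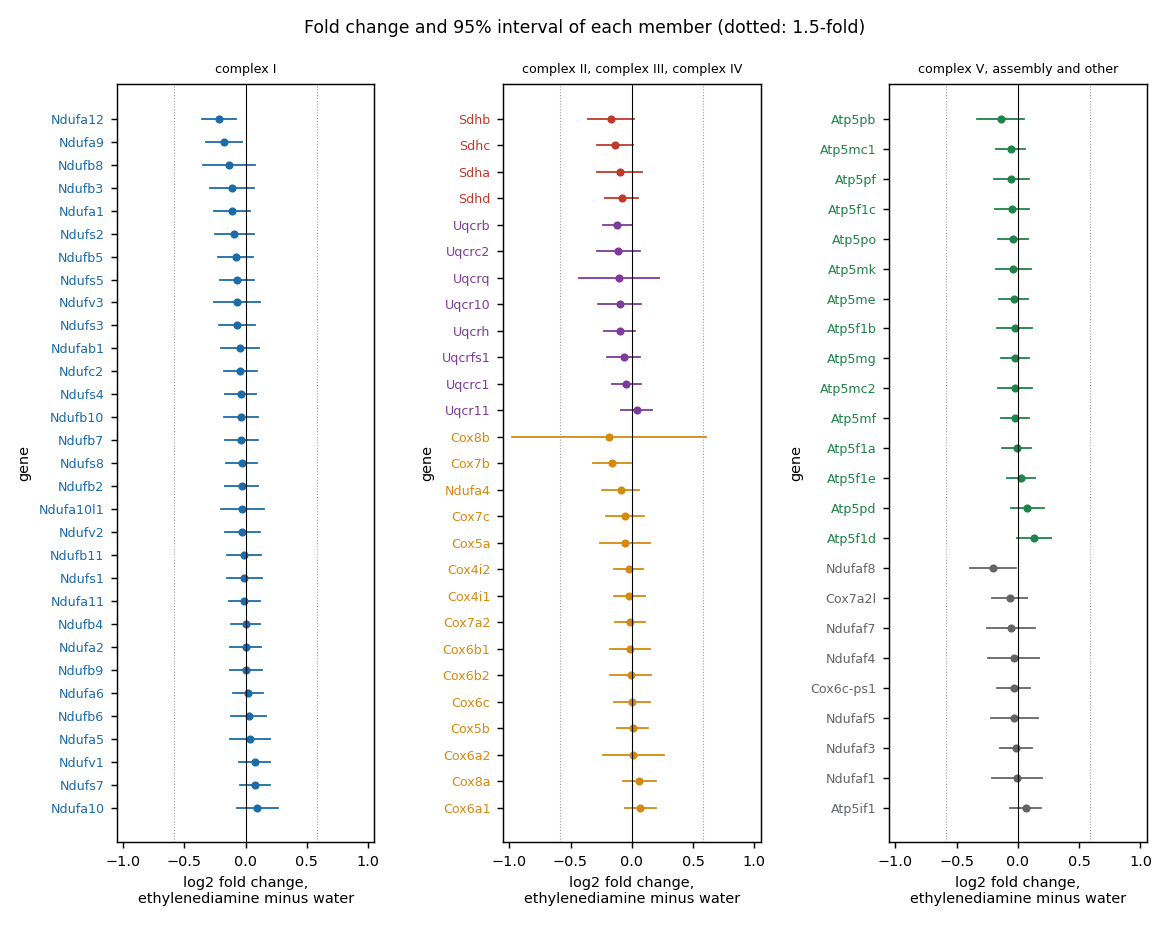
Points are the log2 fold change of each member, ethylenediamine minus water, and bars are 95% intervals from limma (n = 3 animals a group). Of the 82 intervals, 81 stay inside the dotted lines at 1.5-fold, and that of Cox8b does not.

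Complex I takes electrons from NADH, and 31 of its genes were tested. Their median fold change was -0.034 and 22 of 31 were negative. The 7 core subunits, which carry the flavin, iron-sulfur clusters and quinone site, had a median of -0.028, and the 24 accessory subunits had -0.036. The median of complex I was -0.009 within slide 1 and -0.005 without ethylenediamine replicate 2.
Ndufa12, an accessory subunit, had signals of 6.40, 6.35 and 6.40 in ethylenediamine cortex, against 6.66, 6.54 and 6.61 in water cortex. All 3 ethylenediamine values lay below all 3 water values. Its fold change was -0.22 (SE 0.055, n = 3 each, limma unadjusted p = 0.00782, adjusted p = 0.342), and its second probe gave -0.20. Within slide 1, where replicate 1 is the only ethylenediamine array, the fold change was -0.205.
Ndufa9, an accessory subunit near the junction of the matrix and membrane arms, had 4.24, 4.09 and 4.12 in ethylenediamine cortex, against 4.34, 4.34 and 4.31 in water cortex. The groups did not overlap, and the fold change was -0.18 (SE 0.060, limma unadjusted p = 0.0273, adjusted p = 0.424). It was -0.087 within slide 1, and ethylenediamine replicates 2 and 3, on slide 2, were the lowest arrays.
Ndufs1, the large iron-sulfur core subunit, had 5.33, 5.22 and 5.25 in ethylenediamine cortex, against 5.28, 5.24 and 5.31 in water cortex. The groups overlapped, with a fold change of -0.011 (95% interval -0.151 to 0.130). Ndufv1, which binds NADH, and Ndufs7, an iron-sulfur subunit by the quinone site, were the complex I members whose ethylenediamine values lay above all water values, with fold changes of 0.072 and 0.079 (0.082 and 0.121 within slide 1) and limma adjusted p = 0.653 and 0.629. Ndufb3 and Ndufa1, small accessory subunits, lay below all water values at -0.11 each, with limma adjusted p = 0.629 and 0.586.

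Complex II, succinate dehydrogenase, also works in the citric acid cycle. All 4 subunits had negative fold changes, with a median of -0.118, of -0.049 within slide 1 and of -0.133 without ethylenediamine replicate 2. The array medians were -0.049, -0.138 and -0.206 in ethylenediamine replicates 1 to 3, so here replicate 3 was the lowest. None passed an unadjusted p of 0.05.
Sdhb, the iron-sulfur subunit, had 5.57, 5.34 and 5.37 in ethylenediamine cortex, against 5.58, 5.57 and 5.65 in water cortex. Replicate 1 stood with the water values and replicates 2 and 3 below them. The fold change was -0.17 (SE 0.077, limma adjusted p = 0.521), and it was -0.029 within slide 1.
Sdhc, a membrane anchor, had 5.38, 5.31 and 5.23 in ethylenediamine cortex, against 5.42, 5.47 and 5.44 in water cortex. The groups did not overlap, with a fold change of -0.14 (SE 0.060, limma adjusted p = 0.504) and of -0.062 within slide 1.
Sdha, the flavoprotein that oxidises succinate, had 7.0, 7.13 and 6.92 in ethylenediamine cortex, against 7.09, 7.07 and 7.18 in water cortex, and the groups overlapped. Its fold change was -0.10 (-0.114 within slide 1), and that of the second anchor, Sdhd, was -0.084 (-0.037 within slide 1).

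Complex III passes electrons on to cytochrome c. Its 8 genes had a median fold change of -0.099, 7 were negative, and for 4 of them all ethylenediamine values lay below all water values (50%, beside 8.27% of all genes). The median was -0.061 within slide 1 and -0.046 without ethylenediamine replicate 2.
Uqcrb, a small subunit by the quinone site, had 7.02, 7.01 and 7.02 in ethylenediamine cortex, against 7.10, 7.15 and 7.14 in water cortex. The ethylenediamine values were nearly identical and all below water. The fold change was -0.12 (SE 0.048, limma unadjusted p = 0.0488, adjusted p = 0.479) and -0.12 within slide 1, and its 4 probes gave -0.23 to -0.10.
Uqcrh, the hinge protein that helps cytochrome c bind, had 6.41, 6.38 and 6.47 in ethylenediamine cortex, against 6.52, 6.53 and 6.52 in water cortex. The groups did not overlap, with a fold change of -0.099 (limma adjusted p = 0.565). The core proteins Uqcrc1 and Uqcrc2 also lay below water without overlap, at -0.046 and -0.11 (-0.050 and -0.051 within slide 1). Uqcr11, a small subunit, had ethylenediamine values above water, at 0.040. The Rieske iron-sulfur protein, Uqcrfs1, gave -0.067 with overlapping groups.

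Complex IV, cytochrome c oxidase, reduces oxygen. Of 16 genes, 15 were tested, with a median fold change of -0.016 and 10 negative. For 1 of them all ethylenediamine values lay below all water values (6.7%, beside 8.27% of all genes). Cox8c was not well above background on any array.
Cox7b, a small structural subunit, had 6.45, 6.29 and 6.38 in ethylenediamine cortex, against 6.55, 6.49 and 6.58 in water cortex. The groups did not overlap, and the fold change was -0.16 (SE 0.063, limma unadjusted p = 0.0416, adjusted p = 0.466). Within slide 1 it was -0.088.
Ndufa4, named for complex I and since placed in complex IV, had 7.0, 6.90 and 6.87 in ethylenediamine cortex, against 6.97, 7.07 and 7.01 in water cortex. The groups overlapped, with a fold change of -0.089, and of -0.013 within slide 1. Cox4i1, the main isoform of its subunit, had 7.80, 7.74 and 7.82 in ethylenediamine cortex, against 7.80, 7.80 and 7.80 in water cortex, and its isoform Cox4i2, known from lung, had a fold change of -0.026. Both isoforms thus had intervals spanning 0.

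The heart and muscle isoforms of complex IV had dim or disagreeing probes. Cox8b, the isoform of Cox8a in rodent muscle and brown fat, had -1.21, -1.02 and -1.08 in ethylenediamine cortex, against -1.17, -0.17 and -1.42 in water cortex. Water replicate 2 stood high, on the second probe too (-0.43, against -1.47 and -1.84 in the other water arrays). The fold change was -0.18 (SE 0.32), and 0.191 without water replicate 2. Of 12 striated muscle and brown fat markers 6 were tested, and Myh6, Myh7, Ckm, Ucp1, Plin1 and Fabp4 were not among the genes tested. The summed linear signal of the 6 tested was 5.66 to 6.39 in ethylenediamine arrays and 5.89 to 6.51 in water arrays, and 5.89 in water replicate 2. Actc1, at 1.84 in water replicate 2, is the brightest of them and sets most of the sum, which says little of the others.
Cox6a2, the heart and muscle partner of Cox6a1, had -1.27, -1.11 and -1.30 in ethylenediamine cortex, against -1.23, -1.09 and -1.40 in water cortex on its brightest probe. That probe gave a fold change of 0.011 with overlapping groups. A dimmer probe of Cox6a2 had -2.81, -2.48 and -2.32 in ethylenediamine cortex, against -3.58, -4.31 and -3.78 in water cortex. On it the groups did not overlap, with a fold change of 1.35 (limma unadjusted p = 0.000916, adjusted over all probes 0.317). The third probe gave 1.1 with overlapping groups (limma unadjusted p = 0.221), so the 3 probes of this gene disagree in size. Cox6a1 had a fold change of 0.070.

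Complex V joins a membrane rotor and a catalytic head. Its 15 genes had a median fold change of -0.026, 12 were negative, and none passed an unadjusted p of 0.05 in limma. Within slide 1 the median was -0.006. The 5 genes of the F1 head and central stalk had a median of -0.011, and the 10 of the peripheral stalk and membrane part had -0.035.
Atp5f1d, the delta subunit of the central stalk, had 5.45, 5.51 and 5.57 in ethylenediamine cortex, against 5.40, 5.37 and 5.34 in water cortex. All ethylenediamine values lay above water, with a fold change of 0.14 (SE 0.056, limma adjusted p = 0.488), and of 0.073 within slide 1. Atp5pd, a peripheral stalk subunit, also lay above water, at 0.078, and at 0.143 within slide 1.
Atp5pb, the b subunit of the peripheral stalk, had 7.77, 7.54 and 7.55 in ethylenediamine cortex, against 7.75, 7.75 and 7.79 in water cortex. Replicate 1 stood with the water values, and replicates 2 and 3 below them. The fold change was -0.14 (SE 0.079, limma adjusted p = 0.588), and 0.010 within slide 1.
Atp5f1b, the catalytic beta subunit, had 6.31, 6.34 and 6.26 in ethylenediamine cortex, against 6.26, 6.34 and 6.39 in water cortex. The groups overlapped, with a fold change of -0.026. Atp5mc1 (a subunit of the c-ring), Atp5me and Atp5mg (small membrane subunits) lay below water without overlap, at -0.058, -0.033 and -0.024 (-0.030, -0.021 and -0.027 within slide 1). Atp5f1a, the alpha subunit, had -0.011 on its brightest probe and -0.15 on the other.

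The remaining 9 genes, the pseudogene Cox6c-ps1 among them, had a median fold change of -0.034, with 8 negative. It was 0.018 without ethylenediamine replicate 2. All 6 complex I assembly factors were negative, with a median of -0.032.
Ndufaf8, which in humans works with Ndufaf5 in building complex I, had 4.37, 4.50 and 4.31 in ethylenediamine cortex, against 4.66, 4.62 and 4.51 in water cortex. Ethylenediamine replicate 2 lay just below water replicate 3, without overlap. The fold change was -0.20 (SE 0.076, limma unadjusted p = 0.0365, adjusted p = 0.457) and -0.23 within slide 1. Atp5if1, which inhibits ATP synthase running in reverse, had 6.12, 6.18 and 6.18 in ethylenediamine cortex, against 6.08, 6.12 and 6.09 in water cortex. The groups overlapped, with a fold change of 0.063 (limma adjusted p = 0.690), and of 0.022 within slide 1.

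**Figure D3:**
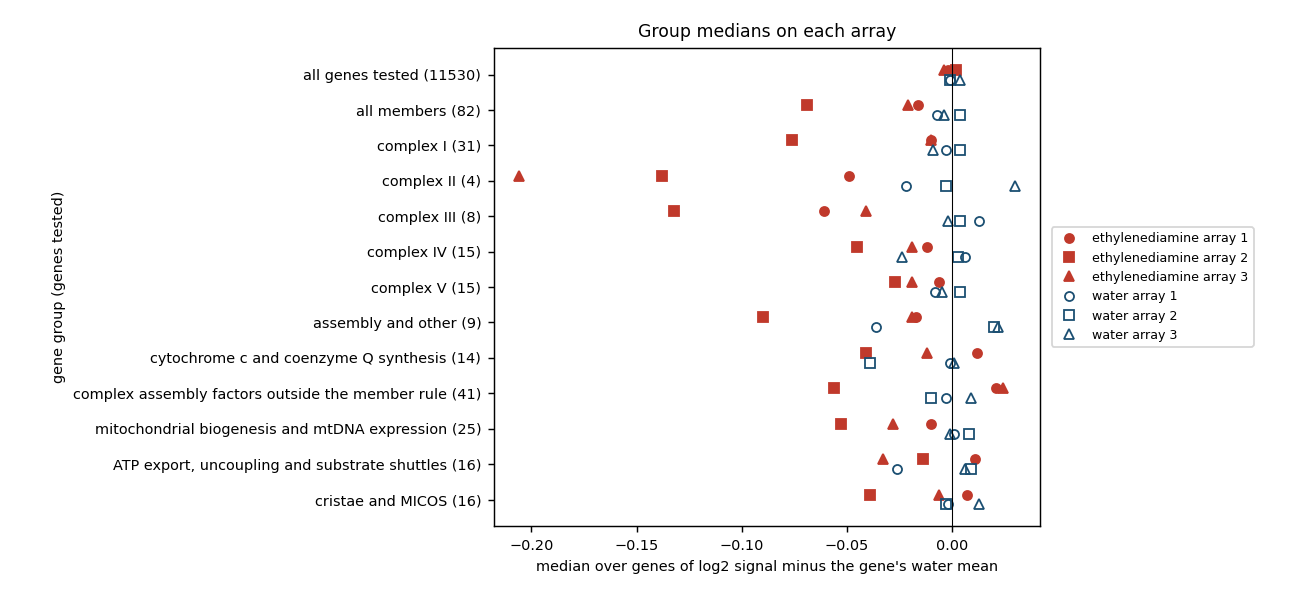
Each point is the median over the genes of a group of the log2 signal minus the gene's water mean, on 1 array (filled red, ethylenediamine; open blue, water; the symbol shape gives the replicate). Complexes II and III lie farthest left, and ethylenediamine replicate 2 (squares) is lowest over all members at -0.069.

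Other probes of the members were compared with the brightest. Among the 43 members that kept several probes, the fold changes of 11 (25.6%) differed in sign between probes, beside 34.6% of the 5892 such genes. The 62 other probes had a median fold change of -0.039 and 47 (75.8%) were negative, beside 51.9% of all 37822 kept probes. At an unadjusted p under 0.05, 4 (6.45%) were lower and 1 (1.61%) was higher in ethylenediamine cortex, beside 5.84% and 4.85% of all kept probes. Of the members, 38 have an annotated pseudogene copy, and a probe that also binds the copy's RNA could not be told apart from one that does not.

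**Figure D4:**
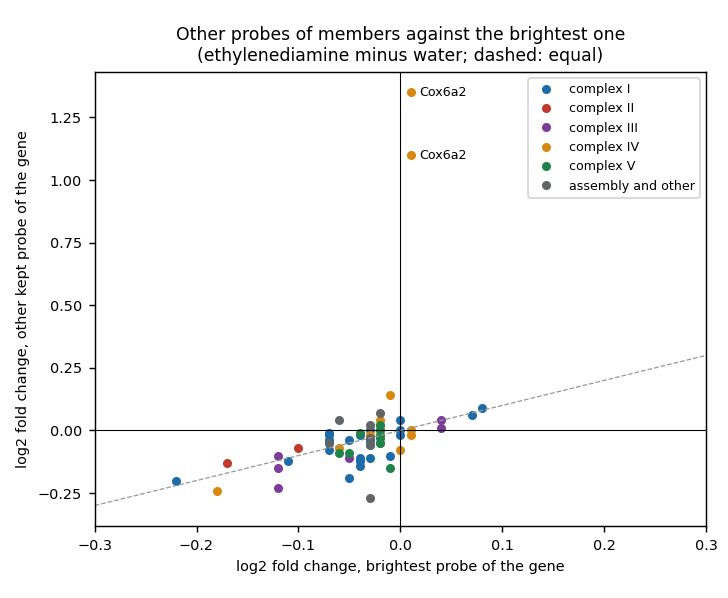
Each point is a second or further kept probe of a member, with the log2 fold change of the brightest probe of the gene on the x axis and its own on the y axis (both ethylenediamine minus water; dashed line, equal values). Most points lie near the line, and the other probes of Cox6a2, at 1.1 and 1.35, stand far above it.

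Neighbouring mitochondrial pathways were read from lists of genes that the symbol rule does not take in. None of their genes passed an adjusted p of 0.05 in limma. Counts below are at an unadjusted p under 0.05, where 5.39% of all genes were higher and 4.97% lower. Among 41 tested assembly factors outside the rule, 2 were higher and 2 lower (4.88% each way), near those shares, with a median fold change of -0.003. Coa5, a complex IV assembly factor, had 2.5, 2.41 and 2.47 in ethylenediamine cortex, against 2.69, 2.72 and 2.67 in water cortex. The groups did not overlap, with a fold change of -0.23 (SE 0.053, limma adjusted p = 0.329), and of -0.19 within slide 1. Higd2a, which helps respiratory supercomplexes form, had 4.57, 4.69 and 4.77 in ethylenediamine cortex, against 4.47, 4.42 and 4.46 in water cortex. It lay above water, with a fold change of 0.23 (SE 0.067, limma adjusted p = 0.377), and of 0.124 within slide 1.

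The mobile carriers and coenzyme Q synthesis held 14 tested genes, with 1 higher, 1 lower (7.14% each way) and a median of -0.036. Cycs, the cytochrome c that links complexes III and IV, had 7.0, 6.99 and 6.92 in ethylenediamine cortex, against 7.27, 7.11 and 7.22 in water cortex. All ethylenediamine values lay below water, with a fold change of -0.23 (SE 0.064, limma unadjusted p = 0.0122, adjusted p = 0.359). Within slide 1 it was -0.196. Coq2, which attaches the side chain in coenzyme Q synthesis, had 2.49, 2.40 and 2.46 in ethylenediamine cortex, against 2.11, 2.06 and 2.15 in water cortex. It lay above water, with a fold change of 0.34 (SE 0.055, limma unadjusted p = 0.000914, adjusted p = 0.303), and of 0.378 within slide 1.

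Of 16 tested genes for ATP export, uncoupling and shuttles, 1 was higher (6.25%) and 0 lower, with a median of -0.005. Ucp2, an inner-membrane carrier, had -0.82, -0.29 and -0.13 in ethylenediamine cortex, against -0.85, -1.06 and -0.82 in water cortex. Replicates 2 and 3 stood high and replicate 1 next to the water values, with a fold change of 0.50 (SE 0.189, limma adjusted p = 0.461), and of 0.090 within slide 1. Ckmt1, mitochondrial creatine kinase, gave 0.25 with overlapping groups, and Slc25a4, which exchanges ADP for ATP, gave -0.11. Within slide 1 Ckmt1 gave 0.235 and Slc25a4 gave -0.126.

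Of 25 tested genes of mitochondrial biogenesis and mitochondrial DNA expression, 0 were higher and 2 lower (8.0%). A negative fold change was found for 19 (76.0%), beside 51.2% of all genes, and the median was -0.029. Ppargc1a, the coactivator that raises transcription of many respiratory genes, had -0.58, -0.74 and -0.61 in ethylenediamine cortex, against -0.41, -0.48 and -0.47 in water cortex. Each ethylenediamine value lay below each water value, with a fold change of -0.19 (SE 0.064, limma unadjusted p = 0.0249, adjusted p = 0.414). Within slide 1 it was -0.129. Tefm, a mitochondrial transcription elongation factor, gave -0.16 (limma adjusted p = 0.466), and -0.112 within slide 1. Esrrg, an estrogen-related receptor, gave -0.33 with overlapping groups (-0.341 within slide 1) and was well above background on 2 of 3 ethylenediamine arrays. Among 16 tested genes of cristae and their MICOS scaffold, 0 were higher and 1 lower (6.25%), with a median of -0.013. Apool, a MICOS subunit, gave -0.20 (limma adjusted p = 0.479), and Fis1, an outer-membrane fission protein, gave 0.12 (limma adjusted p = 0.565). Within slide 1 Apool gave -0.058 and Fis1 gave 0.039.

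Markers of cortical cell types were read on the same arrays. Counts are again at an unadjusted p under 0.05, beside 5.39% of all genes higher and 4.97% lower, and none of the markers passed an adjusted p of 0.05 in limma. The 14 proximal tubule markers had a median fold change of -0.013, with 2 lower (14.3%). Their summed linear signal was 2043 to 2383 in ethylenediamine arrays and 2215 to 2284 in water arrays. Kap, at 7.4, 8.9 and 8.6 in ethylenediamine replicates 1 to 3 and 8.2 to 8.6 in water arrays, sets most of the ethylenediamine range. The 9 intercalated cell markers had a median of -0.176, with 3 lower (33.3%), and sums of 155.1 to 176.9 in ethylenediamine arrays and 188.7 to 233.0 in water arrays. The 7 tested principal cell markers had a median of -0.152, with 1 lower (14.3%), and sums of 167.8 to 202.5 in ethylenediamine arrays and 212.6 to 262.7 in water arrays. The ranges of the intercalated and of the principal cell sums did not overlap. Aqp2 (fold change -0.57) is the brightest probe of the principal cell list and weighs most in its sum. Atp6v1g3 (-0.43) and Slc26a4 (-0.48) are the brightest of the intercalated list. By sign, 7 principal cell markers were negative and 0 positive, and 8 intercalated markers were negative and 1 positive. Sums without the brightest genes were not compared. The 7 tested markers of the distal convoluted and connecting tubule had a median of -0.352, with 3 lower (42.9%), and sums of 171.1 to 228.4 in ethylenediamine arrays and 175.0 to 199.4 in water arrays. Calb1, Trpv5 and Slc8a1 were the 3, at -0.89, -0.44 and -0.41. Klk1, whose signal was 7.19 to 7.60 in ethylenediamine arrays and 7.14 to 7.33 in water arrays, is the brightest probe of this list and sets most of its sum, and its fold change was 0.21. The 7 tested smooth muscle and juxtaglomerular markers had a median of 0.41, with 4 higher (57.1%), and sums of 51.2 to 66.2 in ethylenediamine arrays and 40.4 to 54.0 in water arrays. The 9 markers of the thick ascending limb had a median of -0.052, with 1 higher (11.1%) and 2 lower (22.2%). The part of these cell types in the member values was not tested.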

How the data were processed

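Spot intensity in the deposited scanner files is linear and was background-subtracted and detrended within the array. The software was Agilent Feature Extraction 10.7.1.1 per the file headers, written as 10.7 in the submitters' processing notes, with a grid built on rn4. The deposited value table holds each intensity as a ratio to the array's 75th percentile, and was used as an alternative only. Flags for background, saturation and outliers are the scanner software's, per the file headers.

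Here log2 of the processed intensity minus the array's 75th percentile was used, without 1439 control spots and 22 of 61537 probes with an outlier flag. RefSeq accessions gave symbols (GRCr8 annotation, names and promoters only) to 28194 probes and none to 33321. Kept probes were well above background on every array of 1 group or of both, and the brightest kept probe stood for its gene (11530 genes). No spot was saturated. Ethylenediamine was set against water with limma 3.58.1 under R 4.3.3 (lmFit, eBayes, Benjamini-Hochberg, threshold 0.05), with 4 residual and 1.84 prior degrees of freedom, and the step was tested on simulated data. The number of arrays limits the precision.

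Members and gene lists were chosen with earlier results of these data known. Named genes are, per complex, those with unadjusted p under 0.05 (at most 5) or, where fewer than 2 passed, those with the 2 smallest p-values, a fixed core subunit and known isoforms, and the 2 smallest p-values of each pathway list. Other genes were named after their values were seen. Slide and replicate number were tried as blocks. Same-numbered arrays did not deviate together (correlations -0.003, 0.022 and -0.008), so the numbers were not taken as pairs. Other alternatives were background correction, scaling, the deposited values, the filter, the probe per gene, the variance model and leaving out each array.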

Additional observations from a re-analysis of the deposited data

How the results depend on the processing

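The count of members at an adjusted p under 0.05 was 0 in limma under all 19 alternatives. Members lower at an unadjusted p under 0.05 numbered 5, against 2 without the filter on dim probes, 8 with a trended and robust variance model, 0 with the slide as a block, 0 within slide 1, and 1 to 6 when each array was left out in turn. With the replicate number as a block, which the data did not bear out as a pairing, 2 members were lower, and the counts at an adjusted p under 0.05 stayed at 0. Members higher at an unadjusted p under 0.05 numbered 0, against 1 with quantile normalization, 1 with the mean over probes, 1 with the trended and robust model, 1 with array weights, and 0 to 1 with each array left out. Over all genes, limma's adjusted p was under 0.05 for 0 higher and 0 lower genes, against 10 higher with the slide as a block, 5 higher and 1 lower within slide 1, 1 lower with the trended and robust model, and 0 to 1 higher with each array left out. Members with a negative fold change numbered 52 to 72 under the alternatives. The median fold change of members was -0.034, and -0.062 under median scaling, which shifted the median of all genes to -0.032. It was -0.044 to -0.024 with each array left out. Of 930 fold changes of 49 named genes under alternatives, 906 kept their sign. The sign turned within slide 1, and likewise with the slide as a block, for Atp5pb (0.010), Ndufs1 (0.058), Cox6a2 (-0.034), Ndufa10 (-0.015), Uqcrq (0.058), Cox8a (-0.011) and Atp5f1a (0.013). It turned for Atp5f1b (0.012) under normexp and for Cox6a2 (-0.017) under median scaling. Leaving out each array in turn gave -0.045 to 0.014 for Ndufs1, -0.037 to 0.003 for Cox4i1, -0.059 to 0.005 for Atp5f1b, -0.069 to 0.088 for Cox6a2, -0.432 to 0.191 for Cox8b and -0.022 to 0.005 for Atp5f1a. The causes were not tested, except that slide 1 holds 1 ethylenediamine array. The normexp correction used the median spot signal and was chosen after seeing the data. With 3 animals a group and 2 slides, slide and treatment are only parted by ethylenediamine replicate 1.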
